A study of Mus musculus with 4 samples.

Results

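Integrin and laminin subunits were measured in ureter tumors and normal ureter of C57Bl/6 mice with Affymetrix arrays, on which a gene is read by 1 or more probe sets. The genes were chosen by name alone. They are those whose symbols begin with Itga, Itgb, Lama, Lamb or Lamc, without 4 genes that share the letters but encode no subunit. The rule found 76 of the 45101 probe sets of the array, which read 35 of 18193 genes, 25 integrin subunits (57 probe sets) and 10 laminin chains (19 probe sets). Itga11 and Itgad were not analysed here.

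There were 2 ureter tumor samples and 2 normal ureter samples, each on 1 array, and the labels call them biological replicates without naming the animals. All 4 samples came from mice aged 6 to 8 weeks and are described as isolated ureter epithelium. One treatment text stands on all 4 samples. It names R26rtTA;teto-Cre;Ncstnf/f mice, given 1 week of doxycycline when 3 weeks old, and does not say which samples carried which alleles. In that system the Rosa26 locus, which is active in most cell types, drives the transactivator, and doxycycline then switches on Cre recombinase. Nicastrin, the product of Ncstn, belongs to the gamma-secretase that cleaves Notch receptors, and the study asked what part Notch signaling plays in urothelial cancer. The p-values measure only the spread between these samples.

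Integrins are receptors of 1 alpha and 1 beta subunit that bind cells to the extracellular matrix or to other cells, and the pairing of subunits sets the ligand. Laminins are cross-shaped proteins of 1 alpha, 1 beta and 1 gamma chain, and they form the sheet on which every epithelium rests, the basement membrane. In the urothelium, the lining of the urinary tract, basal cells are fixed to that sheet by hemidesmosomes, in which the integrin of Itga6 and Itgb4 holds on to a laminin that contains the Lama3 and Lamb3 chains. Leukocytes use a separate set of subunits, built around Itgb2 and Itgb7.

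Other cell types differed widely between the arrays, and their markers are given beside the results they move with. The median signal was 85.0 and 94.2 on the tumor arrays, against 107 and 103 on the normal arrays. Summed over 8 umbrella cell markers, the signal was 11451 and 17840 in tumors and 50250 and 79997 in normal ureter. Normal ureter carried strong fat markers although the labels call it epithelium. Their sum over 7 genes was 36622 and 6225 in tumors and 258366 and 272864 in normal ureter. Kidney tubule markers (8 genes) summed to 2026 and 169284 in tumors and to 31785 and 61239 in normal ureter, and they were thus high on tumor replicate 2. Basal urothelial markers (6 genes) summed to 102970 and 5843 in tumors and to 16787 and 25301 in normal ureter, and they were high on tumor replicate 1. Gapdh control probe sets, which report RNA integrity, gave a 3' over 5' ratio of 1.51 and 1.44 in tumors and 0.920 and 0.923 in normal ureter. The same ratio for beta-actin lay the other way, at 2.47 and 2.63 in tumors and 2.90 and 2.82 in normal ureter. Ncstn gave a signal of 81.6 and 131 in tumors and 99.0 and 66.2 in normal ureter, which overlapped, and with the floxed exons not stated it checks no label.

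Integrin subunits tended to higher signals in the tumors and laminin chains did not, but 1 gene passed the limma test. Of the 35 genes 33 were bright enough to be tested, 24 integrin subunits and 9 laminin chains. One gene rose, Itgb6, 0 fell and 32 did not pass, which is 3.03% of the 33 against 1.43% of all 13046 genes tested in either direction and 0.491% higher in tumors. At an unadjusted p under 0.05, 9 genes were higher and 3 lower in tumors, beside 10.6% and 10.9% of all genes. In 14 genes (42.4%) the tumor arrays were both above the normal ones, beside 29.4% of all genes, and 13 of these were integrins. In 7 genes (21.2%) both lay below, beside 27.7% of all genes. For Itga10 and Itgb2l among these, both tumor signals lay under 54.6, the mean signal needed for the test. The median difference, tumor minus normal on the log2(signal + 16) scale used for every difference here, was 0.93 over the integrins, -0.05 over the laminins and 0.03 over all genes. In these bulk samples fewer cells of a type and less RNA per cell cannot be told apart.

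**Figure D1:**
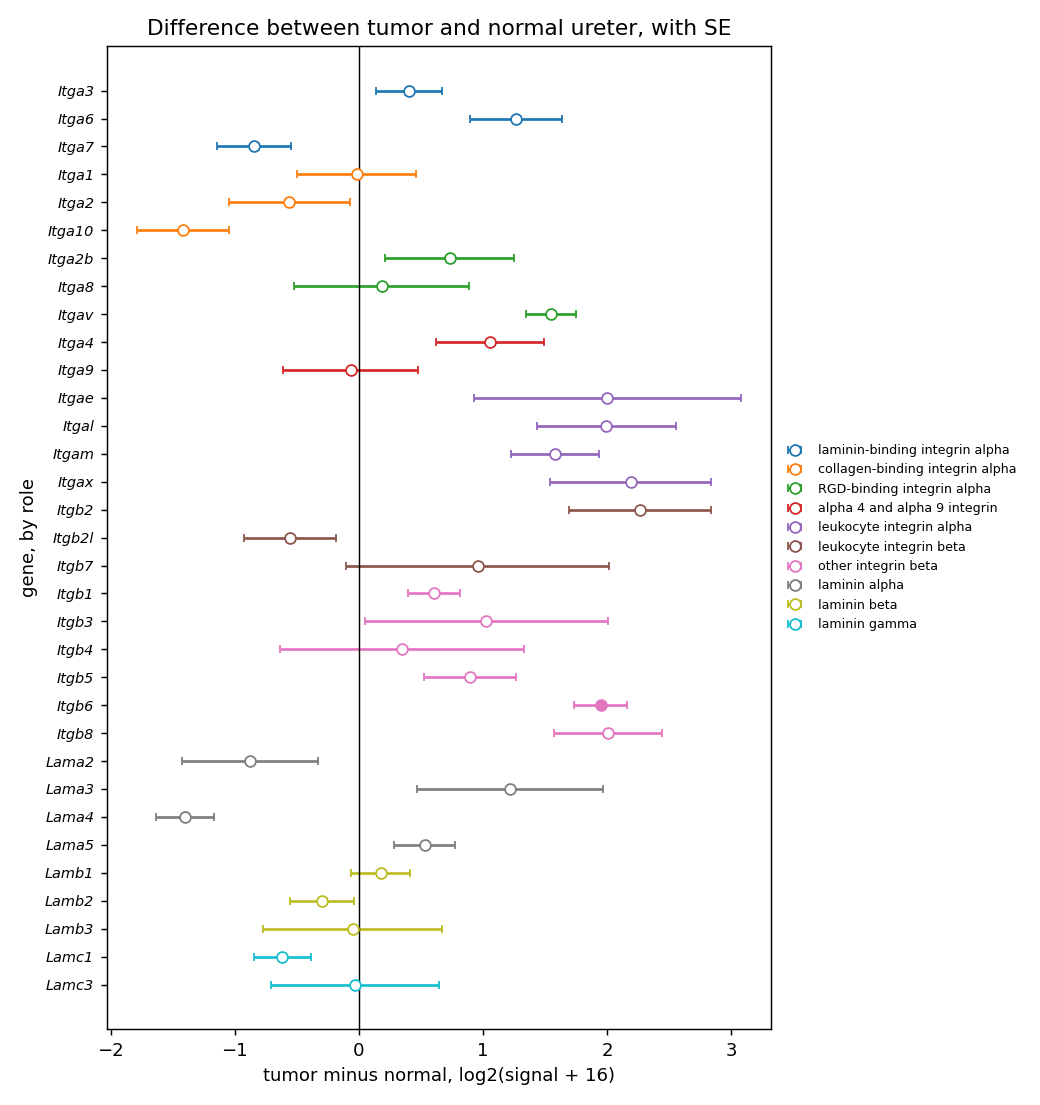
Difference between tumor and normal ureter (tumor minus normal, x axis, log2(signal + 16)) for the 33 genes tested, grouped by role. Points are limma estimates from 2 arrays a group, bars are SE, and the filled point marks Itgb6, the gene that passed at an adjusted p of 0.0496.

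Among the subunits that pair with alpha v, Itgb6 rose in the tumors and the others did not pass the test. Itgb6 is an epithelial beta subunit that pairs with Itgav, and this receptor releases active TGF-beta from its latent complex. Itgb8 also pairs with Itgav and does the same. The regions upstream of these 3 genes are shown because their transcripts were higher on both tumor arrays, together with that of the leukocyte gene Itgam, described further on. Each runs from 250 bases before to 50 bases after the RefSeq start, 5′ to 3′ on the gene's strand, in build GRCm38.p6. They lie at chr2:60722554-60722853 (minus strand) for Itgb6, chr2:83724147-83724446 (plus strand) for Itgav, chr12:119238227-119238526 (minus strand) for Itgb8 and chr7:128062390-128062689 (plus strand) for Itgam. Capitals mark exact matches on either strand to CAGAC (the box that Smad proteins bind), GAGGAA (a core of Ets factors such as PU.1) and GGGCGG (the GC box).
Itgb6 promoter: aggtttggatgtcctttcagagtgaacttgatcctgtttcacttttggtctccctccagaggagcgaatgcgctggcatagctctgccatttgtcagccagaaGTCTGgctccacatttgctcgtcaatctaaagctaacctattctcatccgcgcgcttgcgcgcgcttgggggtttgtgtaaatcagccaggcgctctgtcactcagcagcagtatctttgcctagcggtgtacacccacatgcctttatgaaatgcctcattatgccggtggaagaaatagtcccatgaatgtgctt
Itgav promoter: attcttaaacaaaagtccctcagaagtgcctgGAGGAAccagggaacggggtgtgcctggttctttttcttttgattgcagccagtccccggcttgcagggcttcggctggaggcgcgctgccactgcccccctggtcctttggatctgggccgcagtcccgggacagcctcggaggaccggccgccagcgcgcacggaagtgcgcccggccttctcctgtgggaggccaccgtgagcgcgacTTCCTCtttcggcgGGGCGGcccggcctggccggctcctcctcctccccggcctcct
Itgb8 promoter: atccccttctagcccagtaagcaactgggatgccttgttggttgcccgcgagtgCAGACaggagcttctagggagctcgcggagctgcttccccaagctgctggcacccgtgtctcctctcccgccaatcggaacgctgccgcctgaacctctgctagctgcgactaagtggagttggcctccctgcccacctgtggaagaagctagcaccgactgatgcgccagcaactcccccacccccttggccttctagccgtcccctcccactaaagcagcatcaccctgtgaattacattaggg
Itgam promoter: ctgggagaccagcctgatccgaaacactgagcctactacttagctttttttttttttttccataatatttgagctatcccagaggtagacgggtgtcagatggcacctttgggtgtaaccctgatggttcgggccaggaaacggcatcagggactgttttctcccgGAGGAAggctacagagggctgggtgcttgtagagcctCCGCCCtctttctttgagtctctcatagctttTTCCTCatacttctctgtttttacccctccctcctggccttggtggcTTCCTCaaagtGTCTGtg

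In these windows no match overlapped another. The Itgb6 window, that of the outer of 2 RefSeq starts, held 1 CAGAC, the Itgb8 window 1 CAGAC, and the Itgav window 2 GAGGAA and 1 GGGCGG. The Itgam window held 3 GAGGAA, 1 CAGAC and 1 GGGCGG. Of the 35 genes 23 had a window in the RefSeq table, some with several, 26 windows in all. CAGAC stood in 19 of the 26 (73.1%), against 49.6% of all 32851 windows of the same length. GAGGAA stood in 14 (53.8% against 28.3%) and GGGCGG in 12 (46.2% against 35.7%). The AP-1 site TGANTCA stood in 3 (11.5% against 7.81%), and TGGGAA, the core bound by the Notch partner Rbpj, stood in 5 (19.2% against 25.6%). TATAAA, the TATA box, stood in 0 of the 26, against 13.6% of all windows. These matches are a description of the letters and were given no test.

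Itgb6 (1422983_at) had a signal of 1186 and 1083 on the tumor arrays, against 266 and 298 on the normal arrays. The arrays of each group lay close together and far from the other group. The gene rose 3.86-fold (difference 1.95, SE 0.21, 2 arrays in each group, limma adjusted p = 0.0496). The call stood just inside the threshold. It ended without normal replicate 1 or normal replicate 2 (adjusted p = 0.643 and 0.655), with the replicate block (0.127), without an intensity trend (0.0652), with no filter (0.0599), and with a pseudocount of 1, quantile normalization or median centring (0.0505 to 0.0510). A dimmer probe set of the gene, 1432281_a_at, did not follow, with 86.0 and 70.1 in tumors and 160 and 64.5 in normal ureter, which overlapped. The mean of both probe sets gave 0.80 (adjusted p = 0.238).

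Itgav, the alpha subunit shared by the receptors for vitronectin, fibronectin and latent TGF-beta, had a signal of 12344 and 15201 in tumors and 4637 and 4700 in normal ureter. Both tumor arrays were far above both normal arrays, but the difference of 1.55 (SE 0.20, limma adjusted p = 0.0607) did not pass. Itgb8 had 2240 and 4560 in tumors and 644 and 949 in normal ureter. The groups did not overlap, and tumor replicate 2, which also had the high kidney tubule markers, was the higher one. Their part in the result was not tested. The difference of Itgb8 was 2.01 (SE 0.44, adjusted p = 0.124).

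Itgb5, the beta subunit of a vitronectin receptor, had 2969 and 5742 in tumors and 2342 and 2097 in normal ureter, a difference of 0.89 (SE 0.37, limma adjusted p = 0.273). On each of its 4 probe sets the groups did not overlap, with tumors higher. Itgb3, which platelets, osteoclasts and growing vessels use with Itgav or Itga2b, had 448 and 62.8 in tumors and 106 and 56.1 in normal ureter. It was high on tumor replicate 1 alone. Itgb1, the beta subunit with the most partners, had 3870 and 3053 in tumors and 2417 and 2093 in normal ureter. All tumor values were above the normal ones, with a difference of 0.61 (SE 0.21, adjusted p = 0.218), while its probe set 1452545_a_at, with 3119 and 2658 in tumors and 2678 and 2492 in normal ureter, overlapped.

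Among the other alpha subunits that recognise the RGD tripeptide, 0 passed the test. Itga8, a receptor subunit of smooth muscle and of kidney mesenchyme, had 398 and 1522 in tumors and 803 and 585 in normal ureter. Itga2b, the platelet subunit, had 658 and 274 in tumors and 304 and 205 in normal ureter. Tumor arrays lay on opposite sides of the normal arrays for Itga8, and the groups overlapped for Itga2b. Of 6 platelet genes listed, Itga2b included, 4 were tested and 0 passed, with summed signals over 6 genes of 1807 and 2735 in tumors and 2084 and 1403 in normal ureter. The fibronectin receptor subunit Itga5 stayed under the filter on all 4 of its probe sets, the one with the highest mean having 70.9 and 71.3 in tumors and 45.6 and 24.9 in normal ureter.

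**Figure D2:**
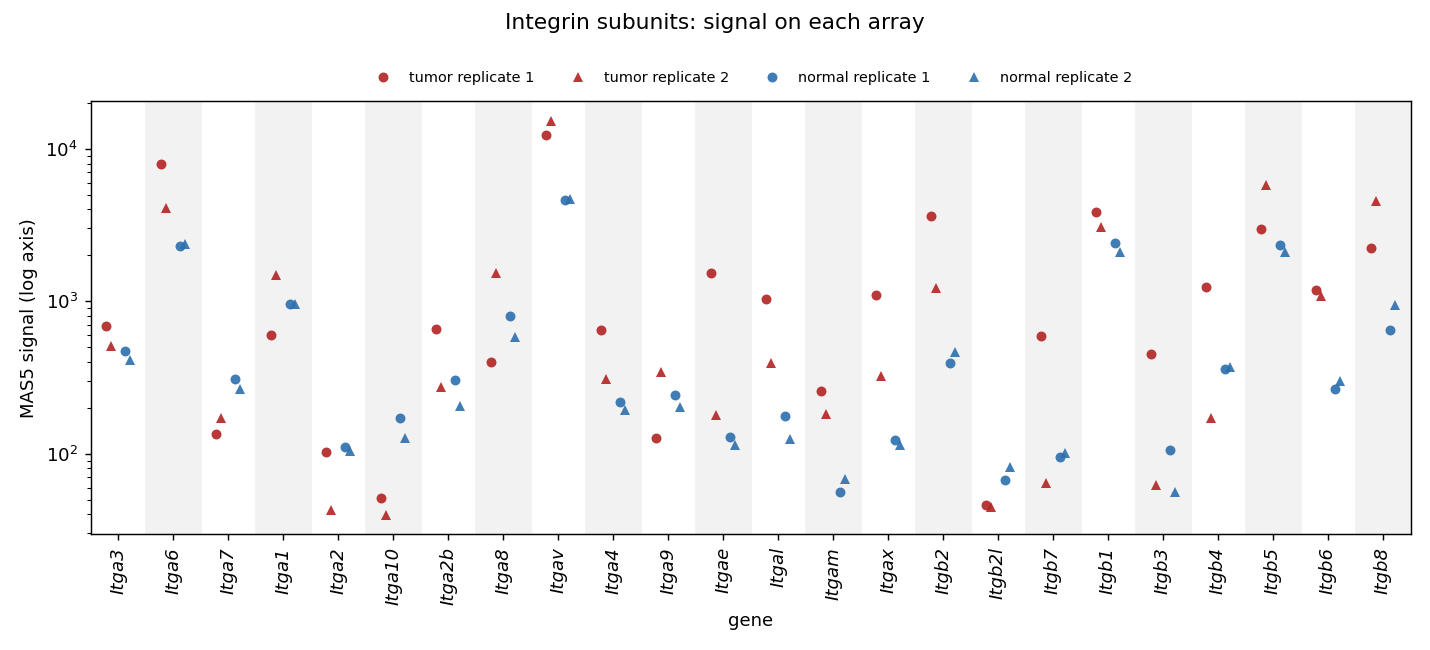
MAS5 signal (y axis, log scale) of the 24 integrin subunits tested, on each of the 4 arrays, with tumor arrays left of normal arrays for each gene. Signals of different genes come from different probe sets and cannot be ranked against each other. For Itgb6 and Itgav the tumor points sit together above the normal points, while for Itgb4 and Itgb7 the tumor arrays fall on both sides of them.

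Matrix ligands of integrins, listed without regard to which receptor binds them, went in both directions. Among those tested 8 were higher and 5 lower in the tumors. Among 19 matrix ligands listed 13 were tested, 1 rose (7.69%, beside 1.43% of all genes in either direction), 0 fell and 12 did not pass. Emilin1, an elastic fibre protein, rose to 1268 and 1421 in tumors, against 287 and 281 in normal ureter (difference 2.18, SE 0.21, limma adjusted p = 0.0425). Thrombospondin (Thbs1), which also releases TGF-beta, had a difference of 1.24 (adjusted p = 0.0721), the matricellular protein Ccn2 one of 3.48 (adjusted p = 0.0955), and Mfge8, a bridge between dying cells and Itgav receptors, one of 1.25 (adjusted p = 0.125). Fibronectin (Fn1) had 14276 and 8558 in tumors and 4357 and 3074 in normal ureter, a difference of 1.59 (adjusted p = 0.126). In each of these 5 genes the tumor values were higher, with no overlap. Vitronectin (Vtn) had 187 and 2.21 in tumors and 283 and 290 in normal ureter, below with no overlap (difference -2.32, adjusted p = 0.366). Nephronectin (Npnt), the ligand of the Itga8 receptor, had 474 and 6068 in tumors and 1164 and 1018 in normal ureter, and it was high on tumor replicate 2 as Itga8 was.

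Subunits and laminin chains of the hemidesmosome were mostly higher on tumor replicate 1 and not on tumor replicate 2. Itga6, the alpha subunit of the hemidesmosome and of another laminin receptor, was the exception. It had 7921 and 4061 in tumors and 2312 and 2386 in normal ureter, a difference of 1.27 (SE 0.37, limma adjusted p = 0.177). Its other probe set, 1422444_at, had 4082 and 2070 in tumors and 634 and 733 in normal ureter. On both probe sets both tumor arrays were higher than both normal arrays, and replicate 1 was about as far above replicate 2 on one as on the other.

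Itgb4, its partner in the hemidesmosome, had 1237 and 171 in tumors and 359 and 369 in normal ureter. Lama3 had 2338 and 589 in tumors and 384 and 642 in normal ureter. Lamb3 had 1575 and 389 in tumors and 917 and 724 in normal ureter. In each of these 3 genes tumor replicate 1 was the highest of the 4 arrays, and for Itgb4 and Lamb3 tumor replicate 2 was the lowest. Their differences were 0.35, 1.22 and -0.05 (SE 0.98, 0.75 and 0.72, limma adjusted p = 0.871, 0.418 and 0.978). Without tumor replicate 1 the difference of Itgb4 was -1.02, and without tumor replicate 2 that of Lamb3 was 0.94.

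Of 6 hemidesmosome partners listed, 6 were tested and 0 passed. Col17a1, a transmembrane collagen of the hemidesmosome, had 10037 and 251 in tumors and 151 and 177 in normal ureter, so that its difference of 3.19 (limma adjusted p = 0.392) came with a very wide gap between the tumor arrays. Plectin (Plec), which ties Itgb4 to keratin filaments, had 6234 and 3361 in tumors and 2502 and 3023 in normal ureter. The tetraspanin Cd151 and the linker Dst had differences of -0.29 and -0.23 (adjusted p = 0.423 and 0.704). Some basal cell markers moved with these genes. Krt5 had 15780 and 628 in tumors and 3415 and 5518 in normal ureter, and Trp63, the basal transcription factor, had 10167 and 440 in tumors and 2446 and 3847 in normal ureter. Krt14, on the same list, had 16715 and 1088 in tumors and 367 and 383 in normal ureter, and Krt15 had 50290 and 1523 in tumors and 336 and 251 in normal ureter. Unlike Itgb4 and Lamb3, these keratins were above normal ureter on tumor replicate 2 too. Shh went the other way, with 771 and 207 in tumors and 8592 and 13234 in normal ureter. Of 6 basal markers 0 passed, and their part in the result was not tested.

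The other laminin-binding alpha subunits went in different directions. Itga3, an epithelial laminin receptor subunit, had 686 and 507 in tumors and 473 and 413 in normal ureter, just above with no overlap (difference 0.40, SE 0.26, limma adjusted p = 0.441). Itga7, the laminin receptor subunit of muscle, had 135 and 172 in tumors and 310 and 266 in normal ureter, below with no overlap (difference -0.85, SE 0.30, adjusted p = 0.221). Smooth and skeletal muscle markers moved with Itga7. Over 8 smooth muscle genes the summed signal was 17214 and 27146 in tumors and 57379 and 46153 in normal ureter. Of the 8, 1 (12.5%), Myh11, fell, beside 1.43% of all genes called in either direction. In 7 of the 8 (87.5%) both tumor arrays lay below both normal arrays, beside 27.7% of all genes. Skeletal muscle markers (8 genes) summed to 353 and 301 in tumors and to 2433 and 1927 in normal ureter. Of these 4 were tested, 3 (75%) were lower with no overlap, beside 27.7% of all genes. One, Myl1, fell (difference -5.32, limma adjusted p = 0.0487), with 48.8 and 8.06 in tumors and 1736 and 1401 in normal ureter. Both of its tumor signals lay under 54.6, the mean signal needed for the test, which Myl1 reached through its normal arrays. The same held for Ckm, with 33.1 and 25.8 in tumors and 245 and 168 in normal ureter. The part of these cells in the result was not tested.

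Most leukocyte integrins, but not Itgb7 and Itgb2l, had higher signals on both tumor arrays. Of 4 alpha subunits and 3 beta subunits tested, 0 passed. On the probe sets read, all 4 alpha subunits and Itgb2 were higher in tumors with no overlap, beside 29.4% of all genes. Itgb2, the beta subunit that all leukocytes carry, had 3606 and 1229 in tumors and 393 and 462 in normal ureter (difference 2.26, SE 0.57, limma adjusted p = 0.149). Itgam, its partner on macrophages and neutrophils, had 258 and 183 in tumors and 56.0 and 68.4 in normal ureter (difference 1.58, adjusted p = 0.129). Itgax, its partner on dendritic cells and macrophages, had 1103 and 325 in tumors and 124 and 115 in normal ureter (difference 2.19, adjusted p = 0.178). For Itgax tumor replicate 1 was more than 3-fold above tumor replicate 2, whereas for Itgam the tumor arrays lay closer. Itgal, the partner used by lymphocytes, had 1041 and 392 in tumors and 177 and 124 in normal ureter (difference 1.99, adjusted p = 0.171). A dimmer Itgal probe set, 1425367_at, overlapped, with 94.1 and 42.3 in tumors and 16.5 and 52.5 in normal ureter.

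Itgae, the alpha subunit of lymphocytes and dendritic cells that sit within an epithelium, had 1531 and 178 in tumors and 128 and 114 in normal ureter. Its beta partner Itgb7 had 592 and 64.7 in tumors and 95.4 and 101 in normal ureter. Both were high on tumor replicate 1, and on tumor replicate 2 Itgae was slightly above and Itgb7 below the normal arrays. A second Itgae probe set, 1449216_at, gave 577 and 31.8 in tumors and 51.8 and 82.9 in normal ureter, which overlapped. The one read, 1447541_s_at, has probes that can match several transcripts. The differences of Itgae and Itgb7 were 2.00 and 0.96 (SE 1.08 and 1.06, limma adjusted p = 0.364 and 0.644), and without tumor replicate 1 that of Itgb7 was -0.50. Itga4, which pairs with Itgb1 or Itgb7 on lymphocytes, monocytes and mast cells, had 643 and 307 in tumors and 220 and 193 in normal ureter (difference 1.06, adjusted p = 0.272). Itgb2l, a relative of Itgb2 found in mouse neutrophils, had 45.8 and 45.0 in tumors and 67.3 and 81.3 in normal ureter, all dim.

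Markers of several leukocytes moved with these subunits. Macrophage markers were high on both tumor arrays, with a sum over 8 genes of 44916 and 36895 in tumors and 10185 and 8702 in normal ureter. Of the 8 genes 4 (50%) rose, C1qb, Mpeg1, Ms4a7 and Csf1r, beside 0.491% of all genes. B and plasma cell markers (7 genes) summed to 89724 and 58764 in tumors and to 19015 and 15631 in normal ureter, and 1 of 6 tested, Jchain, rose. Markers of dendritic cells and class 2 molecules (7 genes) summed to 63874 and 42965 in tumors and to 13870 and 13353 in normal ureter, and 1 of 5 tested, Cd74, rose. The sums of these 3 lists were high on both tumor arrays. In the third sum nearly all signal came from the class 2 genes Cd74, H2-Aa, H2-Ab1 and H2-Eb1. Its dendritic cell gene Zbtb46 had 113 and 241 in tumors and 268 and 165 in normal ureter, which overlapped. Xcr1 had 75.1 and 3.10 in tumors and 35.7 and 45.9 in normal ureter. Flt3 had 123 and 25.5 in tumors and 23.5 and 3.05 in normal ureter, and neither was bright enough to be tested. T and NK cell markers (8 genes) summed to 18189 and 910 in tumors and to 564 and 631 in normal ureter. Mast cell markers (8 genes) summed to 106246 and 686 in tumors and to 801 and 668 in normal ureter, and neutrophil markers (8 genes) to 24361 and 1599 in tumors and to 396 and 302 in normal ureter. All of these were highest on tumor replicate 1, as Itgae and Itgb7 were, with 0 of 7, 0 of 6 and 0 of 5 tested genes past the test. The neutrophil sum and the T and NK cell sum were above normal ureter on tumor replicate 2 as well. Both tumor values were higher with no overlap in 4 of 5 neutrophil genes tested (80%) and 6 of 7 T and NK cell genes (85.7%). For mast cell genes this was 3 of 6 (50%), beside 29.4% of all genes. Most of the T and NK cell sum on tumor replicate 1 was Gzma, with 15262 and 69.4 in tumors and 161 and 147 in normal ureter. Mcpt2, a mast cell protease, had 52197 and 33.7 in tumors and 2.21 and 2.43 in normal ureter. The part of these cells in the integrin signals was not tested.

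Cell-surface ligands of leukocyte integrins went in both directions. Of 8 listed 7 were tested, 1 rose, 0 fell and 6 did not pass. In 4 (57.1%) the tumor values were higher and in 2 (28.6%) lower with no overlap, beside 29.4% and 27.7% of all genes. Vcam1, the vascular ligand of Itga4 receptors, rose to 2748 and 2763 in tumors, against 533 and 566 in normal ureter (difference 2.29, SE 0.17, limma adjusted p = 0.0402). Icam1, the ligand of Itgb2 receptors, had 2758 and 1802 in tumors and 388 and 349 in normal ureter and missed the threshold (difference 2.55, SE 0.28, adjusted p = 0.0505). The junction molecule Jam2 had a difference of -1.01 (adjusted p = 0.129) and E-cadherin (Cdh1), which Itgae binds, one of 0.85 (adjusted p = 0.174). Icam2, another ligand of Itgb2 receptors, had 516 and 441 in tumors and 578 and 602 in normal ureter. In Vcam1 and Icam1 no tumor array came near a normal array.

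**Figure D3:**
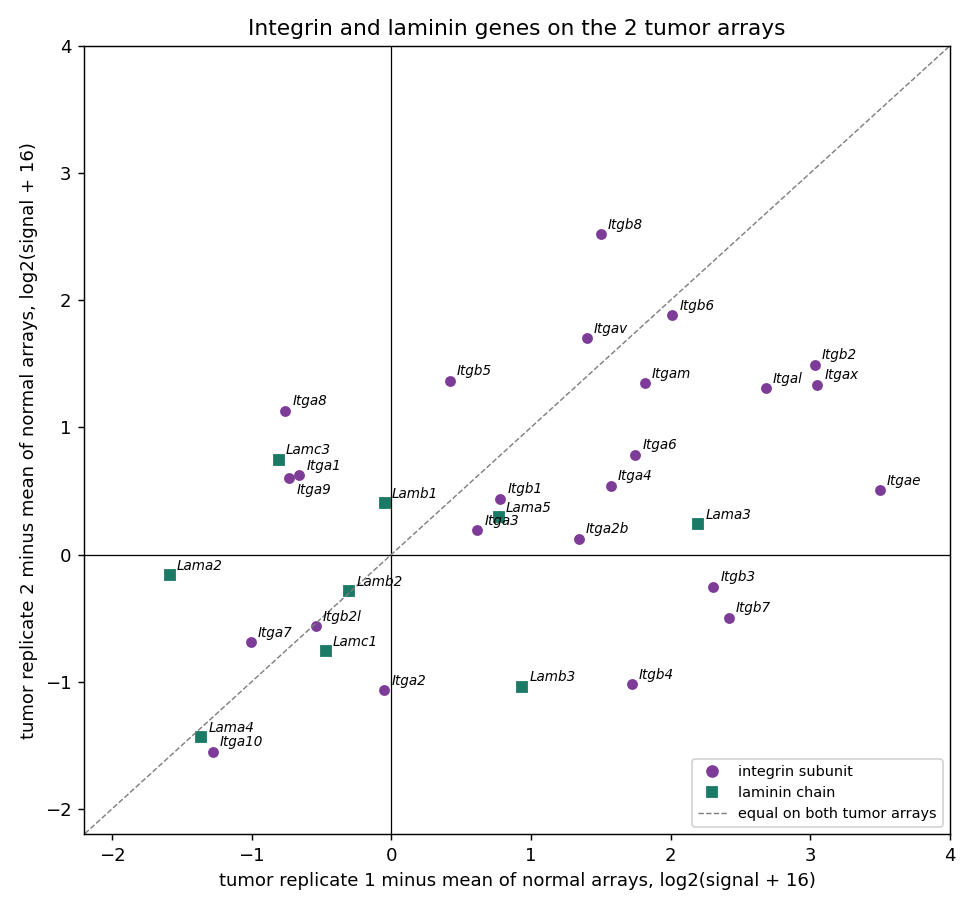
Difference of tumor replicate 1 (x axis) and tumor replicate 2 (y axis) from the mean of the normal arrays, log2(signal + 16), for the 24 integrin subunits and 9 laminin chains tested. The 9 genes in the upper left and lower right fields had the tumor arrays on either side of normal, among them Itgb4 and Lamb3, and Itgb6 and Lama4 lie close to the line of equal difference.

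The tumor arrays differed from each other in these genes more often than in genes at large. In 18 of the 33 genes (54.5%) they were at least 2-fold apart on the log2(signal + 16) scale, against 23.2% of all genes, while the normal arrays were that far apart in 0 of the 33, against 3.52% of all genes. Tumor replicate 1 was above and tumor replicate 2 below the normal mean in Itgb3, Itgb4, Itgb7 and Lamb3. The reverse held for Itga1, Itga8, Itga9, Lamb1 and Lamc3. Together 9 genes (27.3%) lay on opposite sides, beside 30.4% of all genes. No test was made of these counts.

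Collagen-binding alpha subunits were not higher in the tumors on the probe sets read. Itga10, a subunit of cartilage and connective tissue, had 51.4 and 39.9 in tumors and 171 and 127 in normal ureter, with no overlap (difference -1.41, SE 0.37, limma adjusted p = 0.158). Both tumor signals lay under 54.6, the mean signal needed for the test, which Itga10 reached through its normal arrays. Itga2, an epithelial and platelet subunit, had 103 and 42.9 in tumors and 111 and 103 in normal ureter, barely apart on tumor replicate 1. Itga1, a subunit of smooth muscle, fibroblasts and resident lymphocytes, had 600 and 1481 in tumors and 957 and 955 in normal ureter. A dimmer Itga1 probe set, 1439713_at, had 306 and 570 in tumors and 149 and 83.4 in normal ureter, and its difference of 1.76 stood against -0.02 on the brighter one.

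Itga9, which binds tenascin and Vcam1, also had probe sets that disagreed. The one read had 127 and 345 in tumors and 244 and 201 in normal ureter, with a difference of -0.07, and 1450029_s_at, whose probes can match several transcripts, gave 0.85. Its ligand tenascin (Tnc) had 4038 and 1232 in tumors and 366 and 263 in normal ureter (difference 2.79, SE 0.64, limma adjusted p = 0.131). Among the 13 genes with several probe sets above the filter, Itga1, Itga9, Itgb6 and Lamb1 had probe sets that pointed in opposite directions. With each probe set tested on its own, 1 of the 50 tested passed, 1422983_at of Itgb6, beside 1.75% of all 27022 probe sets.

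Of the 9 laminin chains tested 0 passed. Lama4, the alpha chain of vessel, muscle and fat cell basement membranes, had the smallest p among them and lower values in the tumors. It had 574 and 543 in tumors and 1741 and 1289 in normal ureter (difference -1.40, SE 0.24, limma adjusted p = 0.0872). The tumor arrays lay close together and well below. The dimmer probe set 1424808_at had 64.5 and 44.5 in tumors and 106 and 103 in normal ureter. Lama2, the muscle and nerve chain, had 243 and 681 in tumors and 857 and 680 in normal ureter, low on tumor replicate 1 alone (difference -0.88, adjusted p = 0.425).

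Fat and endothelial markers stood beside Lama4 as follows, and the smooth muscle markers given beside Itga7 were lower too. In all 7 fat genes tested both tumor arrays lay below both normal arrays, and 2, Ucp1 and Pparg, fell. Ucp1, the uncoupling protein of brown fat, had 3.15 and 3.41 in tumors and 19660 and 21580 in normal ureter. It reached the filter of 54.6 through its normal arrays. Of 8 endothelial genes 0 passed, and their sum was 6567 and 7610 in tumors and 8836 and 7415 in normal ureter. In 2 of the 8 (25%), Kdr and Cldn5, the tumor values were lower with no overlap (differences -0.93 and -0.52, limma adjusted p = 0.136 and 0.231). Over all genes that share was 27.7%. The part of these cells in the Lama4 result was not tested.

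The chains found in nearly all basement membranes did not pass the test and did not share a direction. Lamc1, the gamma chain of most laminins, had 490 and 398 in tumors and 681 and 689 in normal ureter, with no overlap (difference -0.61, SE 0.23, limma adjusted p = 0.238). Its dimmer probe set, 1423886_at, was also lower, with 90.4 and 90.1 in tumors and 124 and 121 in normal ureter. Lamb1 had 4300 and 5875 in tumors and 4821 and 4096 in normal ureter, and the groups overlapped, while its probe set 1424113_at had 1103 and 1740 in tumors and 717 and 948 in normal ureter. Lamb2 had 513 and 519 in tumors and 749 and 542 in normal ureter, with differences of 0.18 for Lamb1 and -0.30 for Lamb2 (adjusted p = 0.712 and 0.555).

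Lama5, the alpha chain of mature epithelial basement membranes, was the 1 laminin chain of the 9 tested with both tumor values above the normal ones. It had 1257 and 898 in tumors and 736 and 725 in normal ureter (difference 0.53, SE 0.25, limma adjusted p = 0.308). A second probe set, 1427010_s_at, overlapped, with 994 and 484 in tumors and 455 and 493 in normal ureter. Lamc3 had 35.4 and 135 in tumors and 95.6 and 56.5 in normal ureter, which overlapped and lay near the filter. Lama1, an alpha chain of embryonic and kidney basement membranes, was under the filter with 82.6 and 121 in tumors and 16.2 and 30.9 in normal ureter, and the groups did not overlap.

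**Figure D4:**
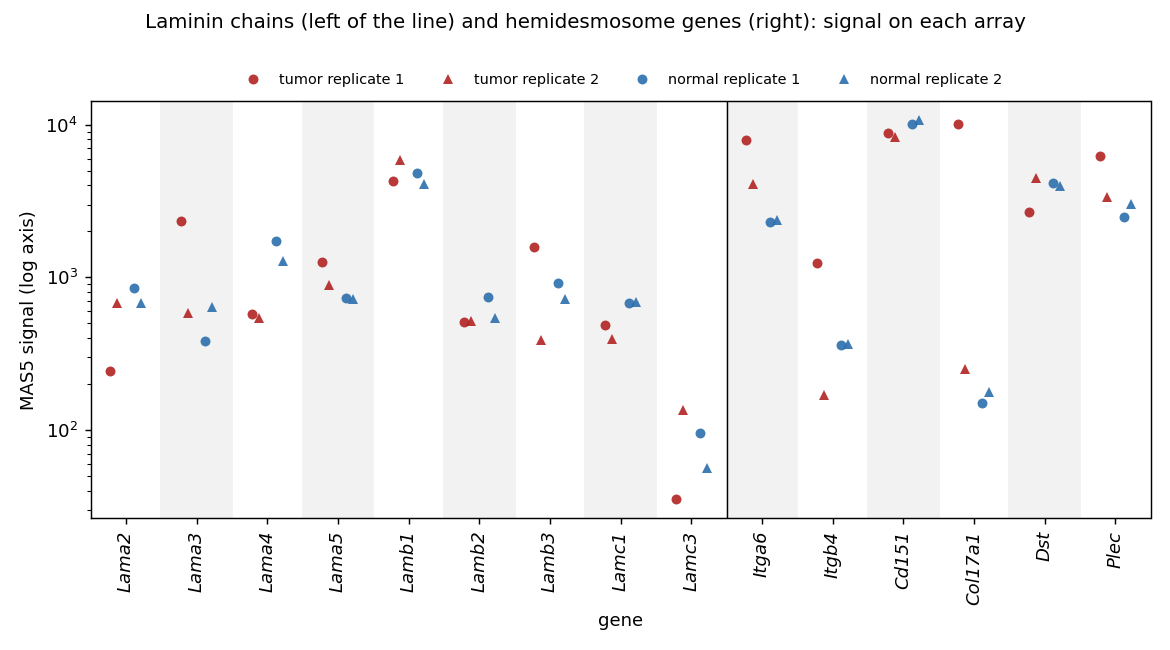
MAS5 signal (y axis, log scale) on each array of the 9 laminin chains tested (left of the line) and of hemidesmosome genes (right), with tumor arrays left of normal arrays for each gene. Signals of different genes cannot be ranked against each other. Lama4 and Lamc1 sit lower on both tumor arrays, while Lama3, Lamb3, Itgb4 and Col17a1 are highest on tumor replicate 1.

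Other basement membrane genes were measured beside the laminins, and 0 of the 14 tested passed. Agrin (Agrn), a proteoglycan that binds laminin, had 4578 and 5501 in tumors and 1965 and 2097 in normal ureter (difference 1.30, SE 0.19, limma adjusted p = 0.0718). Nidogen (Nid1), which links laminin to collagen, had 3985 and 4140 in tumors and 7336 and 5700 in normal ureter (difference -0.67, adjusted p = 0.189). Agrn and Nid1 had no overlap between the groups and lay in opposite directions. Fras1 and Frem1, of the complex that joins epithelium to stroma, gave 1.22 and 1.61 (adjusted p = 0.198 and 0.322). The list had a median difference of 0.39, but the median was -0.0045 on tumor replicate 1 and 1.21 on tumor replicate 2. On both tumor arrays 3 genes (21.4%) lay above and 1 (7.14%) below, beside 29.4% and 27.7% of all genes. In the other 10 the groups overlapped.

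Of the laminin receptors that are not integrins, 4 were tested and 0 passed. Sgce, a sarcoglycan of the complex around dystroglycan, had 706 and 502 in tumors and 1581 and 1449 in normal ureter (difference -1.32, SE 0.25, limma adjusted p = 0.101). Dystroglycan (Dag1) itself had 5543 and 5616 in tumors and 4017 and 4289 in normal ureter (difference 0.43, adjusted p = 0.252). For the sarcoglycan Sgcb and the Lutheran glycoprotein Bcam the differences were -0.55 and -0.40 (adjusted p = 0.343 and 0.488).

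Proteins that act on the inner side of integrins gave 0 of 21 tested genes past the test, with a median difference of 0.35. Without overlap 12 genes (57.1%) were higher and 3 (14.3%) lower, beside 29.4% and 27.7% of all genes. Talin (Tln1), which switches integrins on, had 1100 and 1116 in tumors and 542 and 508 in normal ureter (difference 1.06, SE 0.19, limma adjusted p = 0.0961). The tumor values nearly coincided. Fermt3, the kindlin of blood cells, had 7094 and 2319 in tumors and 766 and 995 in normal ureter (difference 2.20, adjusted p = 0.165), and tumor replicate 1 was the higher as it was for Itgb2. The focal adhesion adaptors paxillin (Pxn) and Parva had differences of 0.74 and 1.12 (adjusted p = 0.158 and 0.175). At an unadjusted p under 0.05 the list had 7 genes (33.3%) higher and 1 (4.76%) lower, beside 10.6% and 10.9% of all genes.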

How the data were processed

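Total RNA (6 ug) was labelled and hybridized to one-colour arrays, per the labels' protocols. The authors deposited a linear intensity for each probe set. The submitters' processing notes name MAS5, with no version, and detection calls were not used here. Each array had a mean of 500 after 2% of probe sets were trimmed at each end, so a signal is relative to its own array.

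Of 45101 probe sets, 64 controls were left out, and 34945 had 1 gene symbol, 932 several and 9160 none. Symbols came from the platform annotation and were updated by gene identifier for 34741. Signals were transformed as log2(signal + 16), which understates changes of dim genes. Where several probe sets named 1 gene alone, the one of highest mean stood for it. It was tested where that mean reached the 40th percentile of all non-control probe sets, a signal of 54.6.

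The groups were compared in R 4.3.3 with limma 3.58.1 (lmFit, then eBayes with an intensity trend). The test was two-sided, with Benjamini-Hochberg adjustment over all genes tested and a threshold of 0.05. It had 2 residual and 2.11 prior degrees of freedom. Simulated data with equal spread in both groups served only to check that differences were recovered on average. The rate of false calls was not checked, nor was the wider spread of the tumor arrays simulated. With 2 arrays a group, the smallest p of an exact permutation test is 0.333, so none was used. Every integrin and laminin gene was accounted for, and from each pathway list the 4 genes with the smallest p and any that passed were named. Any other gene of those lists that is named was chosen after its values were seen. The members and lists were chosen with earlier results of these data known. Alternatives were other pseudocounts, scalings, filters, probe set rules and variance priors, a replicate block, a fold rule and leaving out each array. Figures were drawn with matplotlib 3.10.9.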

Additional observations from a re-analysis of the deposited data

How the results depend on the processing

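The number of arrays limits every result, and the test of 2 against 2 had few calls to lose. Of all genes 187 passed and of the integrin and laminin genes 1 did, Itgb6. Both counts fell to 0 with the replicate block, where 2253 genes and 10 of the 33 had an unadjusted p under 0.05. The replicate numbers pair nothing in the labels, and same-numbered arrays did not deviate together (r = 0.04 across genes). Both counts were also 0 without normal replicate 1 (884 genes and 2 of the 33 at an unadjusted p under 0.05) and without normal replicate 2 (889 and 4). Leaving out a tumor array gave the highest counts, 4298 genes and 15 of the 33 without tumor replicate 1, 5502 and 24 without tumor replicate 2. The lone array left is then assumed to vary like the normal arrays. Without an intensity trend 2 genes passed, with the mean of probe sets 117, with every probe set 473 and by the 2-fold rule at an unadjusted p 1880, of which 10 were integrin or laminin genes. Itgb6 was also lost, leaving 0, with a pseudocount of 1, quantile normalization, median centring, no filter, no intensity trend and the mean of probe sets, where 11 to 13 integrin and laminin genes had an unadjusted p under 0.05.

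Of the 33 genes 24 kept the sign of their difference under each of the 16 alternatives for which they gave a value. The other 9 changed sign 19 times in all. The filters, every probe set, the variance priors, the replicate block and the fold rule leave the difference of a gene as it is. Only the remaining alternatives could therefore change a sign. With the mean of probe sets Itga1 gave 0.87, Itga8 -0.19 and Itga9 0.70. Under quantile normalization Itga9 gave 0.0091 and Lamc3 0.17, and with a pseudocount of 64 Lamc3 gave 0.019. Leaving out each array in turn, the lowest and highest values were -0.66 and 0.62 for Itga1, -0.76 and 1.13 for Itga8, -0.73 and 0.60 for Itga9, -0.25 and 2.31 for Itgb3, -1.02 and 1.72 for Itgb4, -0.50 and 2.42 for Itgb7, -0.047 and 0.40 for Lamb1, -1.04 and 0.94 for Lamb3, and -0.81 and 0.74 for Lamc3. For these 9 genes the cause was not tested beyond the array left out.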

Other observations

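The 26 probe sets under the filter were read without a test. In 9 of them the tumor values were higher with no overlap, in 4 they were lower, and in 13 the groups overlapped. The same shares over all probe sets under the filter were not computed, so these counts show no direction. The widest gap was in a second Itga3 probe set, 1421997_s_at, with 143 and 164 in tumors and 5.74 and 9.12 in normal ureter, a difference of 2.86 on the log2(signal + 16) scale. The brighter Itga3 probe set gave 0.40 and another dim one, 1460305_at, overlapped with 50.1 and 7.66 in tumors and 7.43 and 32.6 in normal ureter. A dim Itgb2l probe set, 1449829_at, had 49.0 and 48.4 in tumors and 9.19 and 6.04 in normal ureter, opposite to the probe set read for that gene. The names of the first of these and of 9 other integrin and laminin probe sets mark probes that can match several transcripts. A dim Itga4 probe set, 1456498_at, had 95.0 and 80.9 in tumors and 16.5 and 27.9 in normal ureter and went the same way as the bright one. These probe sets were picked after their values were seen.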
